A study of Mus musculus with 4 samples.

Results

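The TGF-beta genes described here were the 3 TGF-beta ligands Tgfb1, Tgfb2 and Tgfb3, the activin subunit gene Inhba, the latent-complex gene Ltbp1, the receptors Tgfbr1, Tgfbr2 and Tgfbr3, and the feedback inhibitor Smad7. They were taken by gene symbol, as 9 of the 54446 genes in the expression table. The rule itself uses none of their values, but the genes were chosen with earlier results of these data known. All 9 had an FPKM (fragments mapped to a gene, scaled by its exon length and by the depth of the library) above 0 in every library and so belonged to the 17787 genes compared. The study asked how baicalin, a flavonoid from Scutellaria roots, changes gene expression in mammary epithelial cells. Cells were FACS-sorted from mammary glands of wild-type C57BL/6 mice and labelled basal or luminal. They were grown in 3D in growth factor-reduced Matrigel under EGF-containing medium with either DMSO or 100 μM baicalin. The study names a salt solution, not DMSO, as the solvent of baicalin. There was 1 library for each of the 4 combinations, so no value has a replicate error and no difference within a label or within a treatment was tested. The study took glands from female mice of 6 to 9 weeks, virgin or at other stages, and describes basal cells as lineage-negative, CD29 high and CD24 positive and luminal cells as lineage-negative, CD29 low and CD24 positive. The number and the exact age of the mice behind each library and the time in culture at RNA harvest are not given in the sources used here.

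TGF-beta is secreted in a latent complex with its propeptide and a latent TGF-beta binding protein, and is released from it by integrins, proteases or thrombospondin. Active ligand brings together the type II and type I receptors, which are serine/threonine kinases, and the type I receptor then phosphorylates Smad2 and Smad3, which join Smad4 and enter the nucleus. Activins use their own receptors but the same Smads, whereas bone morphogenetic proteins (BMPs) use other Smads. In the mammary gland, TGF-beta is known as a restraint on ductal growth and branching and as a regulator of extracellular matrix, and the ligand TGF-beta 3 is known for its part in involution.

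The promoter-proximal sequences of Inhba, Tgfbr2 and Ltbp1 are printed because Inhba and Tgfbr2 headed the order of levels and were higher with baicalin under both labels, whereas Ltbp1 differed in direction between the labels. Each is the run of 250 bases before a RefSeq transcription start (assembly GRCm38.p6), read 5′ to 3′ on the strand of the gene. Capitals mark matches, on either strand, to the searched motifs CAGACA (a Smad-binding element), TGANTCA (AP-1), GGAATG (TEAD) and TGACNNNGC (the antioxidant response element).
Inhba, chr13:16011601-16011850, plus strand: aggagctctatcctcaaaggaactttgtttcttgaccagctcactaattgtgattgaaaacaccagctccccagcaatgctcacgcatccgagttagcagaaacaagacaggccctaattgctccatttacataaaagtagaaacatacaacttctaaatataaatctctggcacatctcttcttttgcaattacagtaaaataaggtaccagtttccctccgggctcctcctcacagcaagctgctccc
Tgfbr2, chr9:116175364-116175613, minus strand: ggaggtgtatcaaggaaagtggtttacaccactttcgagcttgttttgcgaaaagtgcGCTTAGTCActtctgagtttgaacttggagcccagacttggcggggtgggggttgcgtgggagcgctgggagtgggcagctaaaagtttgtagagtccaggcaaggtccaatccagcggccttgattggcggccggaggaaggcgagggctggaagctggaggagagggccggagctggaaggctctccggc
Ltbp1 upstream start, chr17:75005279-75005528, plus strand: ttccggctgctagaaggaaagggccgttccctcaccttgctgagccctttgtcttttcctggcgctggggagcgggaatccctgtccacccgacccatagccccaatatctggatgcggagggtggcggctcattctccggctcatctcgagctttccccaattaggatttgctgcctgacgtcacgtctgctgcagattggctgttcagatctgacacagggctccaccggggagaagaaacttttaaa
Ltbp1 downstream start, chr17:75178531-75178780, plus strand: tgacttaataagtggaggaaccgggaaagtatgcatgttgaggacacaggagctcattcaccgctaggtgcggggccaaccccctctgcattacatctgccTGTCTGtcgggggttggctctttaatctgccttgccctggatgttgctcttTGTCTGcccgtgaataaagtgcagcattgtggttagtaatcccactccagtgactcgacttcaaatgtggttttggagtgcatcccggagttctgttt

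The Inhba window held none of the 4 motifs and had a GC content of 43.2%. The Tgfbr2 window held 1 match to TGACNNNGC, which 10.2% of the 32851 RefSeq windows of this length also held. The downstream Ltbp1 window held 2 matches to CAGACA, found at least once in 17.1% of the windows, and the upstream one held no match. TGANTCA and GGAATG, present in 6.75% and 12.6% of all windows, were in none of the 4 sequences. A match is a match of letters only, and gene-level FPKM does not separate the starts of Ltbp1.

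The labels were first set against the defining markers of each cell type. The 10 basal markers summed to 2031 FPKM in the basal-labelled DMSO library, 703 in the basal-labelled baicalin library, 5229 in the luminal-labelled DMSO library and 6315 in the luminal-labelled baicalin library. The 10 luminal markers summed to 4437, 3145, 1372 and 1187 FPKM in the same order. Basal markers were therefore more abundant in the libraries labelled luminal, 9 of 10 of them under each treatment, and all 10 luminal markers were more abundant in the libraries labelled basal. Krt5, a basal keratin, stood at 128 and 3.01 FPKM in the basal-labelled libraries with DMSO and baicalin, against 2015 and 2415 FPKM in the luminal-labelled ones. The libraries are called by their labels throughout, and directions between the labels hold for the labels only. Summed fibroblast markers were 3.39 to 11.8 FPKM and summed endothelial markers 1.05 to 4.50 FPKM. Immune markers summed to 87.0, 98.6, 16.5 and 26.7 FPKM, of which Cd14 and Cd68 made up most, while the defining gene Ptprc was at or near 0. The libraries held 19356089 to 20648788 fragments, recovered from the steps in which low FPKM values rise.

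Levels of the 9 genes ranged from 2.27 FPKM (Tgfb2, luminal label with baicalin) to 93.95 FPKM (Inhba, basal label with baicalin). Inhba had the highest level of the 9 in both basal-labelled libraries and Tgfbr2 in both luminal-labelled libraries. With the basal label and DMSO, the order was Inhba, Tgfbr2, Tgfb3, Tgfbr1, Smad7, Tgfb1, Ltbp1, Tgfb2 and Tgfbr3, with no neighbours overlapping in their counting intervals. With the luminal label and DMSO, Tgfbr2 was followed by Tgfb3 and Tgfbr1, whose intervals overlapped, then by Tgfbr3, Smad7, Inhba, Tgfb1, Ltbp1 and Tgfb2, of which Inhba and Tgfb1 overlapped. With baicalin, Tgfbr1 and Smad7 overlapped, as did Tgfb1 and Tgfbr3, under the basal label, and Tgfb3 and Smad7, as well as Tgfbr3 and Tgfb1, under the luminal label. Such intervals, at 95%, hold the counting error of the fragments and nothing of the variation between cultures.

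**Figure D1:**
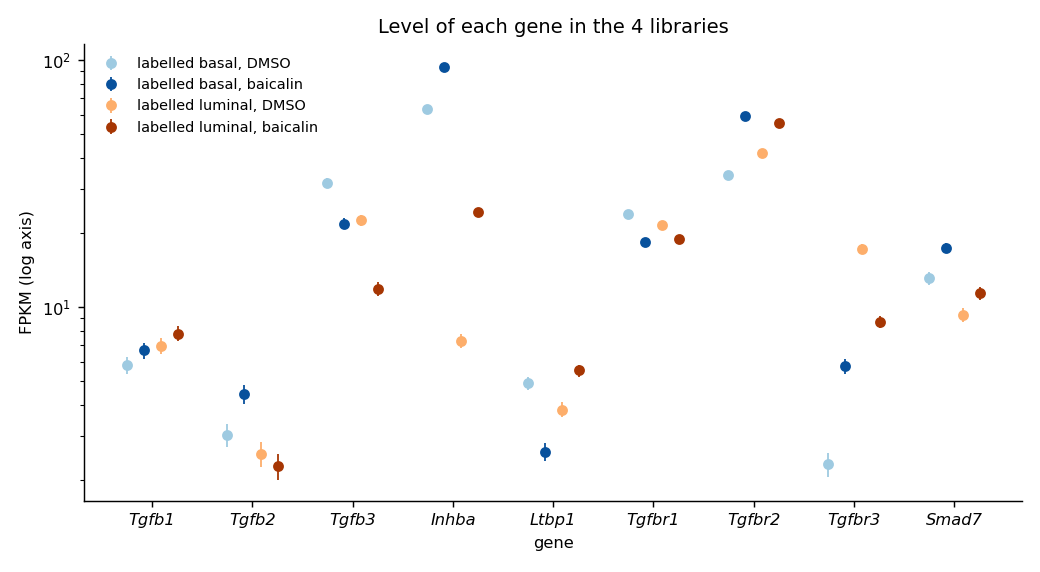
FPKM of the 9 TGF-beta genes in each of the 4 libraries, on a log axis, with 95% counting intervals as error bars. Inhba runs from 7.29 FPKM (luminal label, DMSO) to 93.95 FPKM (basal label, baicalin), whereas Tgfb1 stays between 5.83 and 7.81 FPKM.

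Baicalin was compared with DMSO within each label on the scale of log2(FPKM + 1), and a gene counted as called when its difference exceeded 1. Under the basal label, 1 of the 9 genes was called higher (Tgfbr3) and 0 were called lower, against a background of 2.15% of all compared genes called higher and 3.33% called lower. Under the luminal label, 1 was called higher (Inhba) and 0 lower, against 2.37% and 1.59% of all genes. The median log2 difference of the 9 genes was 0.38 under the basal label, with 0.01 over all genes, and 0.14 under the luminal label, with -0.02 over all genes. In FPKM ratios, 6 of the 9 lay above 1 and 3 below 1 beyond counting error under the basal label, and 5 lay above, 3 below and 1 within it under the luminal label. Of all compared genes with an exon length, 28.1% lay above 1 and 26.3% below 1 beyond counting error under the basal label, and 22.9% and 28.7% under the luminal label. Among the 8360 genes with at least the mean fragment number of the least covered of the 9 genes, these shares were 36.4% and 38.8%, then 32.8% and 39.6%. Ltbp1 and Tgfbr3, 2 of the 9 genes, lay beyond counting error in opposite directions under the 2 labels, as did 10.6% of all compared genes and 16.2% of the 8360. A difference in a bulk library can come from a different share of cells of a type or from a different amount of RNA per cell, and these cannot be told apart here.

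**Figure D2:**
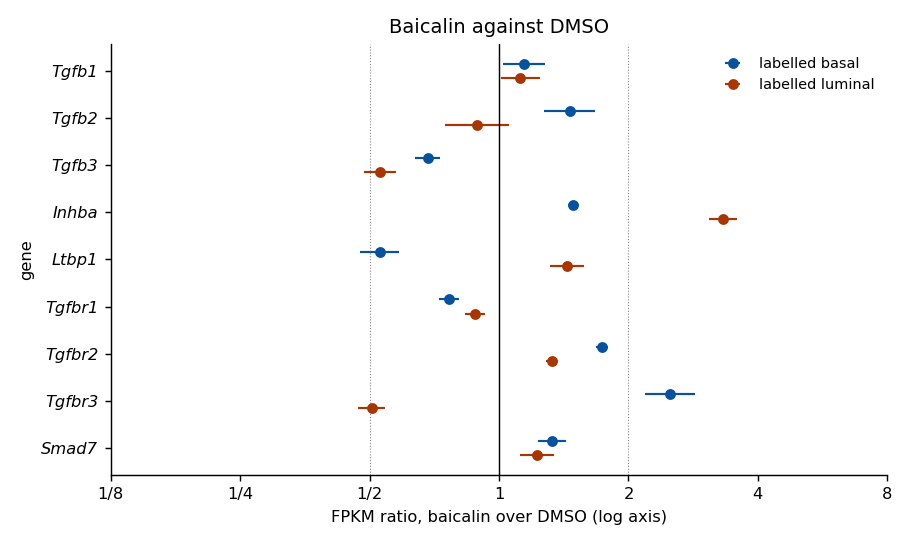
Ratio of FPKM with baicalin to FPKM with DMSO for the 9 genes, on a log axis, by label, with exact 95% counting intervals. Tgfbr3 lies at 2.49 under the basal label and 0.506 under the luminal label, and Inhba at 1.49 and 3.32.

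Tgfb1 (ENSMUSG00000002603, chr7:25687002-25705077, plus strand, GRCm38) encodes the ligand TGF-beta 1. It stood at 5.83 FPKM with DMSO and 6.68 FPKM with baicalin under the basal label, and at 6.97 and 7.81 FPKM under the luminal label. The 4 levels were close together, with the luminal-labelled libraries slightly higher. The ratio of baicalin to DMSO was 1.14 (95% counting interval 1.02 to 1.28) under the basal label and 1.12 (1.01 to 1.24) under the luminal label.

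Tgfb2 (ENSMUSG00000039239, chr1:186622792-186705989, minus strand) encodes TGF-beta 2 and was the least abundant of the 3 ligands. Its levels were 3.04 FPKM with DMSO and 4.44 FPKM with baicalin under the basal label, and 2.55 and 2.27 FPKM under the luminal label. The basal-labelled baicalin library was the highest. The ratio was 1.46 (1.27 to 1.68) under the basal label, and 0.888 (0.749 to 1.05) under the luminal label, where the interval held 1. A gene on the other strand, Gm29491, shares 124 of its exon bases and was at 0 in all 4 libraries.

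Tgfb3 (ENSMUSG00000021253, chr12:86056745-86079041, minus strand) encodes TGF-beta 3 and was the most abundant of the 3. Its levels were 31.9 FPKM with DMSO and 21.7 FPKM with baicalin under the basal label, and 22.5 and 11.9 FPKM under the luminal label. Under each label the baicalin library was the lower, with a ratio of 0.682 (0.638 to 0.729) for basal and 0.528 (0.485 to 0.575) for luminal. Of its 3383 exon bases, 420 are shared with 2 genes on the other strand, which reached at most 0.451 FPKM. The strand setting of the counting was not given in the sources used here.

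The balance among the 3 ligands moved with these values. Their summed level was 40.8 FPKM with DMSO and 32.9 FPKM with baicalin under the basal label, and 32.0 and 21.96 FPKM under the luminal label. Tgfb3 made up 78.2% of that sum with DMSO and 66.1% with baicalin under the basal label, and 70.3% and 54.1% under the luminal label. The share of Tgfb1 was 14.3% and 20.3%, then 21.8% and 35.6%, in the same order. The baicalin libraries had the lower sum and the lower Tgfb3 share under each label.

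Inhba (ENSMUSG00000041324, chr13:16011851-16031621, plus strand) encodes the inhibin beta A subunit, which forms activin A as a dimer. Its level was 63.1 FPKM with DMSO and 93.95 FPKM with baicalin under the basal label, from 8007 and 12177 fragments. Under the luminal label it was 7.29 FPKM with DMSO and 24.2 FPKM with baicalin, from 902 and 3193 fragments. The baicalin library was the higher under each label, and both basal-labelled libraries lay above both luminal-labelled ones. The ratio was 1.49 (1.45 to 1.53) under the basal label and 3.32 (3.08 to 3.58) under the luminal label, a log2 difference of 1.60 that exceeded that of 99.3% of all compared genes. The luminal ratio was 2.23 times the basal ratio (2.06 to 2.41). Relative to the summed TGF-beta ligands, Inhba stood at 1.55 and 2.86 under the basal label and at 0.228 and 1.10 under the luminal label, with DMSO and baicalin respectively. Another activin subunit gene, Inhbb, lies outside the rule for named genes and was named after its values were seen. It was lower with baicalin under each label, at 48.5 and 35.3 FPKM for basal and at 44.3 and 33.3 FPKM for luminal.

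Ltbp1 (ENSMUSG00000001870, chr17:75005568-75392512, plus strand) encodes a latent TGF-beta binding protein, which ties the latent ligand to the extracellular matrix. Its levels were 4.92 FPKM with DMSO and 2.60 FPKM with baicalin under the basal label, and 3.85 and 5.55 FPKM under the luminal label. Baicalin went with a lower level under the basal label and a higher one under the luminal label. The ratios were 0.528 (0.476 to 0.585) and 1.44 (1.32 to 1.58), and the luminal ratio was 2.73 times the basal one (2.38 to 3.13). Neither log2 difference, -0.72 and 0.43, was called.

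Tgfbr1 (ENSMUSG00000007613, chr4:47353222-47414931, plus strand) encodes the type I receptor. It stood at 23.9 FPKM with DMSO and 18.3 FPKM with baicalin under the basal label, and at 21.4 and 18.9 FPKM under the luminal label. Both baicalin libraries were lower than their DMSO library, with ratios of 0.766 (0.726 to 0.808) and 0.880 (0.833 to 0.929).

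Tgfbr2 (ENSMUSG00000032440, chr9:116084293-116175360, minus strand) encodes the type II receptor, which binds ligand and activates the type I receptor. Its levels were 34.2 FPKM with DMSO and 59.3 FPKM with baicalin under the basal label, and 42.0 and 55.8 FPKM under the luminal label. Here both baicalin libraries were the higher, with ratios of 1.74 (1.68 to 1.79) and 1.33 (1.29 to 1.37), and neither was called. The 2 kinase receptors thus differed from DMSO in opposite directions. The ratio of Tgfbr2 to Tgfbr1 was 1.43 with DMSO and 3.25 with baicalin under the basal label, and 1.96 and 2.96 under the luminal label.

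Tgfbr3 (ENSMUSG00000029287, chr5:107106570-107289629, minus strand) encodes betaglycan, a co-receptor without kinase activity that presents ligand, TGF-beta 2 in particular, to the type II receptor. Its levels were 2.32 FPKM with DMSO and 5.78 FPKM with baicalin under the basal label, from 301 and 767 fragments. Under the luminal label they were 17.2 and 8.72 FPKM, from 2184 and 1178 fragments. The baicalin library was the higher under the basal label and the lower under the luminal label, and both luminal-labelled libraries exceeded both basal-labelled ones. The ratios were 2.49 (2.18 to 2.86) and 0.506 (0.471 to 0.543), with log2 differences of 1.03 and -0.91. The first exceeded the difference of 98.0% of all compared genes and the second that of 2.11%. The luminal ratio was 0.203 times the basal ratio (0.174 to 0.236), the furthest apart of the 9 genes. It shares 297 exon bases with Gm43422 on the same strand, which reached at most 0.130 FPKM.

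Smad7 (ENSMUSG00000025880, chr18:75367529-75395935, plus strand) encodes an inhibitory Smad that is induced by TGF-beta and brings ubiquitin ligases to the type I receptor. Its levels were 13.1 FPKM with DMSO and 17.4 FPKM with baicalin under the basal label, and 9.31 and 11.4 FPKM under the luminal label. The baicalin library was the higher under each label, with ratios of 1.33 (1.23 to 1.43) and 1.22 (1.12 to 1.34). The luminal ratio was 0.922 times the basal one, with an interval of 0.820 to 1.04 that held 1.

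**Figure D3:**
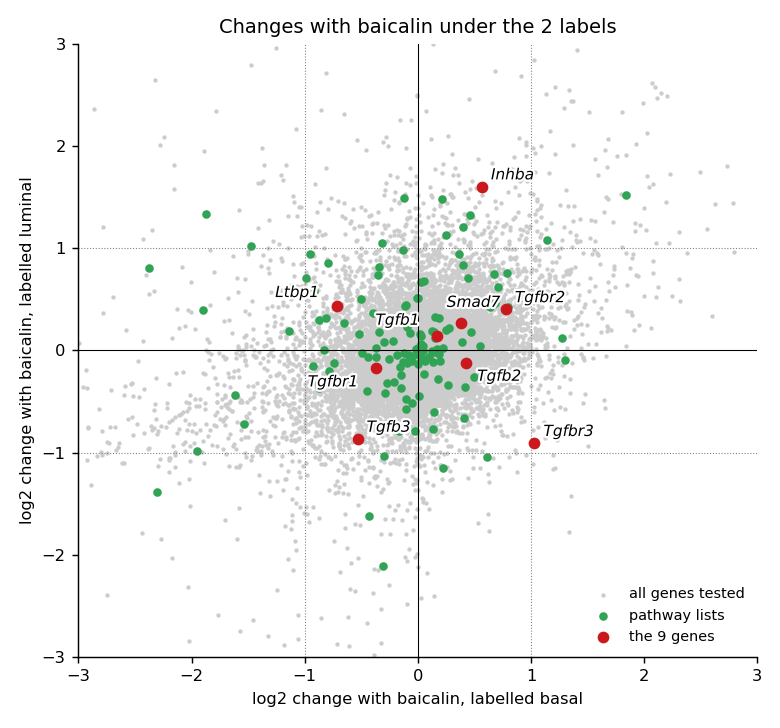
Difference between baicalin and DMSO in log2(FPKM + 1) under the luminal label against that under the basal label, with all 17787 compared genes in grey, genes of the pathway lists in green and the 9 TGF-beta genes in red. Dotted lines mark the threshold of 1, 29 genes lie beyond the axes (1 of the pathway lists), and Tgfbr3 (1.03 and -0.91) is the one red point far into the lower right.

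The 2 labels were then compared at each treatment. These comparisons share their libraries with the comparisons of baicalin with DMSO, so that 1 library enters several of them. With DMSO, 1 of the 9 genes was called higher with the luminal label (Tgfbr3) and 1 lower (Inhba), against 4.71% of all genes called higher and 3.86% lower. With baicalin, 0 were called higher and 1 lower (Inhba), against 5.24% and 2.99%. The median log2 difference of the 9 genes was -0.19 with DMSO and -0.09 with baicalin, beside 0.01 and -0.03 over all genes.

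Inhba was 8.65-fold lower with the luminal label than with the basal label under DMSO (8.08 to 9.28) and 3.88-fold lower under baicalin (3.73 to 4.04). Tgfbr3 was 7.44-fold higher with the luminal label under DMSO (6.59 to 8.42), but 1.51-fold higher under baicalin (1.38 to 1.65). The difference between the labels was smaller with baicalin for both genes. Ltbp1 stood at a luminal to basal ratio of 0.782 (0.712 to 0.858) with DMSO and 2.14 (1.93 to 2.36) with baicalin, and so changed sides. Tgfb3 was lower with the luminal label under both treatments, at ratios of 0.706 (0.660 to 0.754) and 0.547 (0.502 to 0.596), as was Smad7, at 0.711 (0.650 to 0.779) and 0.656 (0.607 to 0.710). The ratio of Tgfb2 was 0.838 (0.714 to 0.983) with DMSO and 0.510 (0.439 to 0.592) with baicalin. Tgfb1 was the higher with the luminal label at 1.19 (1.07 to 1.34) and 1.17 (1.05 to 1.30). Tgfbr2 was higher with the luminal label under DMSO, at 1.23 (1.19 to 1.27), and lower under baicalin, at 0.940 (0.914 to 0.967). The ratio of Tgfbr1 was 0.899 (0.853 to 0.947) with DMSO and 1.03 with baicalin, where the interval (0.976 to 1.09) held 1. The summed basal and luminal markers given above moved with the label, and their part in these differences was not tested.

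**Figure D4:**
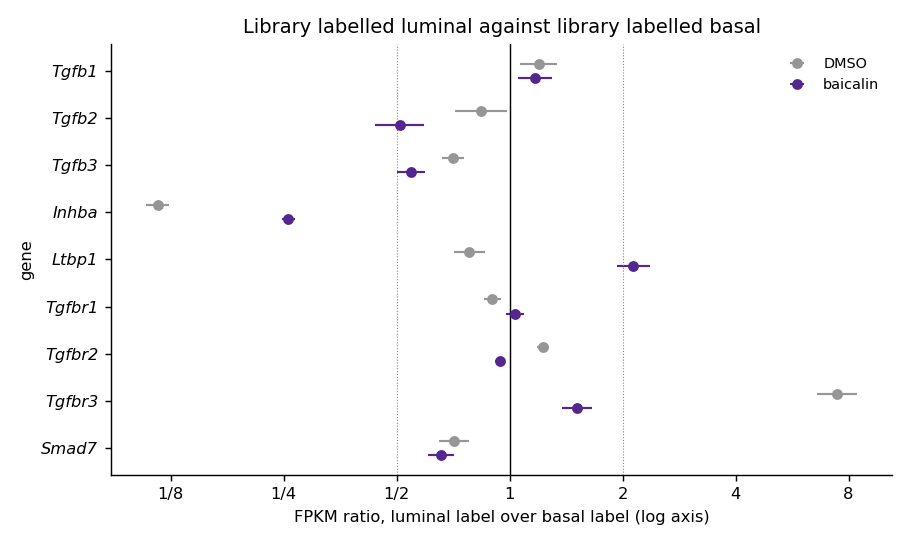
Ratio of FPKM with the luminal label to FPKM with the basal label for the 9 genes, on a log axis, by treatment, with exact 95% counting intervals. Inhba lies furthest below 1 under both treatments, and Tgfbr3 furthest above 1 with DMSO (7.44) while Ltbp1 is furthest above 1 with baicalin (2.14).

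Beyond the 9 genes, 150 further genes of the pathway were listed by role, and 129 of them were compared. Under the basal label, 5 of the 129 were called higher with baicalin (3.88%) and 9 lower (6.98%), and under the luminal label 11 were called higher (8.53%) and 6 lower (4.65%). Over all compared genes these shares were 2.15% and 3.33% under the basal label and 2.37% and 1.59% under the luminal label, and the counts of every list with baicalin stand against the same shares. The lists were drawn up with earlier results known, and nothing particular to them is read from their counts. Among 10 compared ligands listed for the TGF-beta and activin branch, members included, 1 was called higher under the basal label and 2 under the luminal label. None was called lower. The basal call was Gdf15, and the luminal calls were Gdf15 and Inhba. Gdf15 is a stress-induced cytokine of the wider family and is neither a TGF-beta nor an activin. It was at 3.26 FPKM with DMSO and 60.6 FPKM with baicalin for basal and at 1.51 and 9.15 FPKM for luminal. Of 9 compared BMP ligands, only Bmp2 was called, lower with baicalin under the basal label, at 4.02 FPKM with DMSO and 1.28 FPKM with baicalin. Of 16 compared receptors and co-receptors, Tgfbr3 alone was called, and the activin type I receptor gene Acvr1b was at 57.4 FPKM with DMSO and 33.0 FPKM with baicalin under the luminal label.

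Of 23 compared genes for latent complexes and their activation, 1 was called higher under the basal label and 0 lower, whereas 3 were called higher and 2 lower under the luminal label. The basal call was Tgm2, a transglutaminase that crosslinks matrix proteins, at 12.4 FPKM with DMSO and 31.5 FPKM with baicalin. Thbs1, which encodes thrombospondin 1, an activator of latent TGF-beta, was at 638 and 878 FPKM under the basal label and at 284 and 712 FPKM under the luminal label, with log2 differences of 0.46 and 1.32. Lrrc32, which holds latent TGF-beta at the cell surface, was called higher under the luminal label, at 1.19 FPKM with DMSO and 5.14 FPKM with baicalin. Fbn2, a microfibril gene, was called lower there, at 3.95 and 0.143 FPKM. The other luminal calls, Mmp9 (higher) and Ltbp3 (lower), lie outside the rule for named genes and were named after their values were seen. Of 14 compared extracellular binders and inhibitors, 0 were called higher and 2 lower under the basal label, and 3 higher and 1 lower under the luminal label. Fstl1, a follistatin-like gene, was called in both comparisons, at 2.61 FPKM with DMSO and 0.301 FPKM with baicalin for basal and at 3.77 and 8.68 FPKM for luminal. Bgn, a matrix proteoglycan that binds TGF-beta, was at 87.7 FPKM with DMSO and 27.8 FPKM with baicalin under the luminal label.

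Between the labels, 20 of the 129 further pathway genes were called higher with the luminal label under DMSO (15.5%) and 15 lower (11.6%), and 27 were called higher (20.9%) and 11 lower (8.53%) under baicalin. The shares over all compared genes were 4.71% and 3.86% with DMSO and 5.24% and 2.99% with baicalin. Of the 16 receptors, 5 were called higher with the luminal label under DMSO and 0 lower, and 2 and 0 under baicalin. Acvr1b was among the former, at 15.9 FPKM with the basal label and 57.4 FPKM with the luminal label. Bmp7, a BMP ligand, was at 0.326 and 21.2 FPKM in the same libraries. The marker sums that differ between the labels moved with these values too, and their part was not tested.

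None of the 8 Smads was called under either label, and Smad4, the shared partner, was at 28.8 to 32.7 FPKM in all 4 libraries. Of 27 intracellular regulators, 1 was called higher under the basal label and 0 lower, and 1 higher and 1 lower under the luminal label. Smurf1, a ubiquitin ligase that Smad7 recruits, was the gene called higher in both, at 32.1 FPKM with DMSO and 72.0 FPKM with baicalin for basal and at 14.9 and 32.6 FPKM for luminal. Its ratios were 2.24 (2.16 to 2.32) and 2.19 (2.07 to 2.31). Usp11, a deubiquitinase, was called lower under the luminal label, at 6.95 and 2.59 FPKM.

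All 30 listed transcriptional targets of TGF-beta were compared. Under the basal label, 1 was called higher with baicalin and 4 lower. The median log2 difference of the 30 was -0.0048, with 15 above 0 and 15 below. Over all compared genes the median was 0.01, with 9057 above 0 and 8728 below. Under the luminal label, 4 were called higher and 1 lower. The median of the 30 was 0.43, with 22 above 0 and 8 below. Over all compared genes the median was -0.02, with 8115 above 0 and 9670 below. The list was drawn up with earlier results known, so no response of the targets is read from these counts. Of 4 targets that are widely used as readouts (Ctgf, Pmepa1, Skil and Tgfbi), none was called. Ctgf, a matricellular growth factor gene, was at 68.2 FPKM with DMSO and 106 FPKM with baicalin under the basal label and at 29.3 and 39.7 FPKM under the luminal label. Pmepa1, a feedback inhibitor, was at 44.5 and 60.7 FPKM, then 25.2 and 41.7 FPKM. Both genes were higher in the baicalin library under each label. Skil, a repressor of Smads, differed from DMSO by 0.05 and -0.01 on the log2 scale. Tgfbi, a matrix protein gene, stood at 0.775 FPKM with DMSO and 0.131 FPKM with baicalin under the basal label and at 1.22 and 1.67 FPKM under the luminal label. Its ratios were 0.169 (0.0769 to 0.333) and 1.37 (1.04 to 1.81). Both basal levels lay below the added 1 FPKM, which shrank the basal log2 difference to -0.65.

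Several targets lay on opposite sides of DMSO under the 2 labels. Tnc, the matrix protein tenascin C, was at 111 FPKM with DMSO and 29.6 FPKM with baicalin under the basal label and at 52.0 and 133 FPKM under the luminal label. Timp1, a metalloproteinase inhibitor, was at 74.9 and 13.6 FPKM, then 24.6 and 43.7 FPKM. Snai2, a transcription factor of basal cells, was at 4.26 and 0.415 FPKM, then 19.0 and 25.2 FPKM. Baicalin thus went with lower values of these 3 under the basal label and higher values under the luminal label, of which the luminal differences of Timp1 and Snai2 were not called. Summed basal markers went from 2031 to 703 FPKM under the basal label and from 5229 to 6315 FPKM under the luminal label. Of the 10 basal markers, 1 was higher with baicalin under the basal label and 5 under the luminal label. The luminal-label median was 49.2 FPKM with DMSO and 49.1 FPKM with baicalin. Krt14 (2308 and 3132 FPKM) and Krt5 (2015 and 2415 FPKM) were higher with baicalin there, whereas Acta2 (555 and 417 FPKM) was lower. The part of the markers in the result was not tested. Cdkn1a, a cell-cycle inhibitor gene that p53 also induces, was called higher under both labels, at 29.0 and 106 FPKM for basal and at 24.7 and 72.7 FPKM for luminal. Of 8 compared BMP targets, 1 was called higher and 2 lower under the basal label, and 0 higher and 1 lower under the luminal label. Hey1, a transcriptional repressor, was the gene lower in both, at 7.81 FPKM with DMSO and 0.785 FPKM with baicalin for basal and at 15.8 and 5.44 FPKM for luminal.

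**Figure D5:**
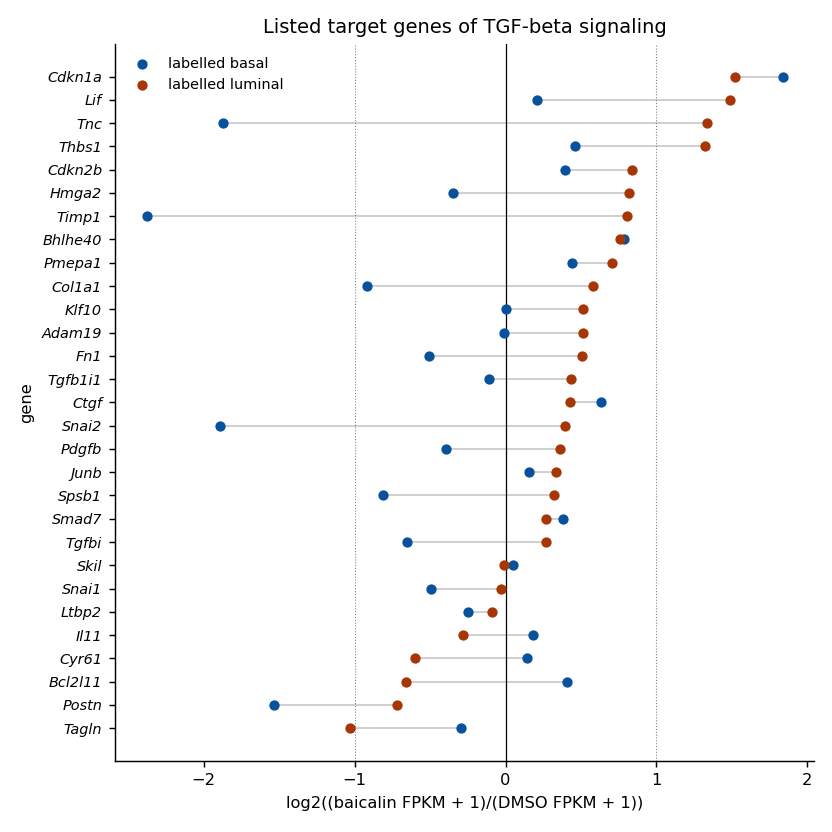
Difference between baicalin and DMSO in log2(FPKM + 1) for 29 of the 30 listed TGF-beta targets, by label, with lines at the threshold of 1 in each direction. Cdkn1a is past the line under both labels, whereas Tnc lies at -1.87 under the basal label and at 1.33 under the luminal label.

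The pattern of each of the 9 genes over the 4 libraries was set beside that of 13431 genes, by the root mean square difference of centred log2(FPKM + 1). The genes nearest to Inhba were the noncoding G930009F23Rik (0.0869), Cldn4 (0.156), a tight junction gene and luminal marker, and Csf3 (0.156), which encodes a colony-stimulating factor. Those nearest to Tgfbr3 were Gm45738 (0.160), Cd36 (0.193), a fatty acid transporter gene, and Gstm1 (0.218), a glutathione transferase gene. Only 1 gene came within 0.1 of Inhba and of Tgfb3, and 0 of Tgfbr3, whereas 753 came within 0.1 of Tgfbr1 and 489 of Tgfb1. Such counts depend on how far a gene varies, so no rarity of a pattern is read from them. Tgfb1 ranged from 5.83 to 7.81 FPKM and Tgfbr1 from 18.3 to 23.9 FPKM. Inhba ranged from 7.29 to 93.95 FPKM and Tgfbr3 from 2.32 to 17.2 FPKM. Klf12 and Flt1 (0.0493) were among the 3 nearest to Ltbp1, Irf9 (0.104) among those of Tgfb3, and Zfand5 (0.0263) was the nearest to Tgfbr2. Hipk4 was the nearest to Tgfb1 (0.00675), Zfp974 to Tgfb2 (0.0160) and Rbm12 to Tgfbr1 (0.0103). Within the 9 genes, Tgfb2 and Smad7 were the closest pair (0.140), and Inhba and Tgfbr3 the most distant (2.16). The added 1 FPKM shrinks the differences of genes at low levels, so closeness to such genes is not closeness in FPKM ratios. Flt1, for example, was at 0.914 FPKM with DMSO and 0.157 FPKM with baicalin under the basal label. Ltbp1 was at 4.92 and 2.60 FPKM in the same libraries. With 4 points a gene, such closeness is a description of these libraries.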

How the data were processed

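RNA of 4 libraries, 1 per combination of label and treatment, was sequenced after oligo (dT) enrichment with a stranded kit. The authors aligned the reads with HISAT2 to GRCm38 with Ensembl release 94 gene models and deposited gene-level FPKM values made with featureCounts v1.5.0. Clean-read filters and the strand setting of the counting are not given in the sources used here, and the submitters' processing notes also name Bowtie 0.12.2 and the build mm8 without a role. A pseudocount of 1 FPKM was added before the log2 scale, genes with FPKM above 0 in all 4 libraries were compared, as the study did, and a log2 difference above 1 was called. The t-test of the study could not be run with 1 library per group. Fragments were recovered from FPKM and exon length (GENCODE mouse release 21), since 98.7% to 98.9% of values of low genes (at most 20 fragments) fell within 0.05 of a whole number. They gave exact Clopper-Pearson 95% intervals for ratios, normal approximations for levels and for ratios of ratios, all for counting error only. PCR duplicates cannot be told from independent molecules, so the intervals are too narrow to that extent. The steps were tried on simulated counts that held counting error and planted changes but no variation between cultures. That trial checks the computation only and cannot show how replicates would vary. Promoter sequences were taken from RefSeq (GRCm38.p6), where 6 of the 9 genes had an entry; Tgfb3, Tgfbr3 and Smad7 had none.

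The 9 genes, the pathway and marker lists and the motifs were chosen with earlier results of these data known. All 9 genes were named with every value. From each pathway list, the 4 genes with the largest difference between baicalin and DMSO under either label and the 2 with the highest FPKM could be named, among genes with at least 1 FPKM in a library, together with Ctgf, Pmepa1, Skil and Tgfbi as widely used targets. The values of 1 further listed target are not reported here. The 3 genes nearest in pattern to each member could be named too. Tables were handled with pandas 2.3.3 and numpy 2.4.6 in Python 3.11.15, intervals came from scipy 1.17.1 and plots from matplotlib 3.10.9. Alternatives were a pseudocount of 0.1 FPKM or none, another filter or none, scaling to TPM, and centring on the median difference.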

Additional observations from a re-analysis of the deposited data

Results flagged for a closer look

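Among the 9 TGF-beta genes, 2 lay beyond counting error on opposite sides of DMSO under the 2 labels, beside 10.6% of all compared genes and 16.2% of the 8360 with at least the mean fragment number of the least covered of the 9. The log2 difference between baicalin and DMSO under the luminal label minus that under the basal label was 1.15 for Ltbp1 and -1.94 for Tgfbr3. The same held for 10 of the 41 further pathway genes that the rule allowed to be named. Most of them were chosen for large differences between baicalin and DMSO, so that their count is not comparable with these shares. The difference was positive for Tnc (3.21), Timp1 (3.19), Fstl1 (2.49), Snai2 (2.29), Fn1 (1.01), Tgfbi (0.92) and Itgb1 (0.68), and negative for Id4 (-1.40), Usp11 (-1.37) and Id2 (-0.90). With 1 library per combination, none of these differences was tested against replicate error.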

How the results depend on the processing

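No paired analysis was possible because the labels carry no replicate numbers and each comparison within a label or treatment has 1 library a side, so no library could be left out either. A model adding label and treatment would leave 1 residual degree of freedom, the difference between the labels in response, and was not run. Over all genes, 975 were called with baicalin under the basal label, 703 under the luminal label, 1523 between the labels with DMSO and 1463 with baicalin. A pseudocount of 0.1 FPKM gave 2425, 1965, 3494 and 3357, no pseudocount 3747, 3096, 4798 and 4635, and scaling to TPM 1698, 1296, 2585 and 2522. The other filters and centring kept each of these counts within 1.5 times. Of the 9 TGF-beta genes, 1, 1, 2 and 1 were called in the same comparisons, and the last count became 2 with a pseudocount of 0.1 FPKM and 2 with none, where Ltbp1 reached 1.07 and 1.09. The called difference of Tgfbr3 under the basal label, 1.03, was 1.32 without a pseudocount. No called difference of the 9 genes changed sign under the 6 alternatives. The small difference of Tgfbr1 between the labels with baicalin (0.04) did, to -0.02 on the TPM scale.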
